A study of Mus musculus with 6 samples.

Results

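Fibroblasts and the non-collagen matrix of the heart under angiotensin II (Ang-II) were described here through 34 genes, chosen by name as markers of cardiac fibroblasts or as genes of non-collagen matrix proteins, of the 56748 genes counted. All 34 were found in the table, and 33 of them were among the 13888 genes that passed the filter on low counts and were tested; osteopontin (Spp1) did not pass. Hearts came from 3 Pontin cTG mice and 3 wild-type (WT) littermates on a C57Bl/6 background, males that were 10 weeks old when treatment began. Pontin cTG mice carry a flag-tagged cDNA of human Pontin behind the mouse α-MHC promoter, which drives expression in cardiomyocytes and not in fibroblasts. The WT littermates carry no transgene. Both groups had received Ang-II at 1.5 mg/kg BW/day from mini-osmotic pumps for 14 days. No library came from a heart without Ang-II, so the comparison bears on genotype under Ang-II and not on the response to Ang-II. Each library is a separate heart of whole tissue, in which fewer cells of a type and less RNA per cell cannot be told apart.

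Cardiac fibroblasts lie between the myocytes and secrete most of the interstitial matrix. Under pressure load or Ang-II they take on an activated state, in which they make collagens together with proteins that organise, crosslink or decorate the fibres. Small leucine-rich proteoglycans space collagen fibrils, fibrillin microfibrils carry elastin and store latent TGF-beta, matricellular proteins such as periostin and tenascin C appear where tissue is remodelled, and lysyl oxidases crosslink collagen and elastin.

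Promoter sequences are given for the 5 tested members with the widest spread between hearts of one group among those with a promoter entry, since these genes set the hearts apart in what follows. The sequences are from RefSeq on build GRCm38.p6 and cover the 150 bases before the annotated transcription start, written 5′ to 3′ on the gene's own strand. Capitals mark the letters TATAAA or TATATA, the core of a TATA box, searched on both strands with overlaps joined. The windows are chr1:134037104-134037253 (plus strand) for Fmod, chr4:64046937-64047086 (minus strand) for the second of the Tnc entries, chr13:92794819-92794968 (minus strand) for Thbs4, chr3:54360957-54361106 (plus strand) for the second of the Postn entries and chr9:65265030-65265179 (plus strand) for Cilp.
Fmod: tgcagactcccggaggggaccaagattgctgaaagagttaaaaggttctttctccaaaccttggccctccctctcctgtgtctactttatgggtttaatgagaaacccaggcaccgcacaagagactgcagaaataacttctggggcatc
Tnc: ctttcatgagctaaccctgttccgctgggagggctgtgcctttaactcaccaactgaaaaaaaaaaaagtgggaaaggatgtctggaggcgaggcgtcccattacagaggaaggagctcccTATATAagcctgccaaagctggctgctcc
Thbs4: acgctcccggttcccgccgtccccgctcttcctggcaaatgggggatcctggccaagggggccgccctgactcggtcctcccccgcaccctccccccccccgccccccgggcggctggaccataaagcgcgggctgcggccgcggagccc
Postn: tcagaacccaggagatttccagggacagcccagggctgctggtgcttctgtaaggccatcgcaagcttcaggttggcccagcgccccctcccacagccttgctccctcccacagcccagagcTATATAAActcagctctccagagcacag
Cilp: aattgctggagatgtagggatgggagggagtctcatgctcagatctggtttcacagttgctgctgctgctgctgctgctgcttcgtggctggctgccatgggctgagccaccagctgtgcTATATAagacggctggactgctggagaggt

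In the windows printed, the motif began 28 bases before the start in Postn, 29 in Tnc and 30 in Cilp, and the windows of Fmod and Thbs4 held none. The first Postn entry, not printed, held none, and in the first Tnc entry the match began 126 bases before the start. In all, 20 members had 26 entries, of which 5 entries of 4 members (Postn, Tnc, Cilp and Thbs2) held the letters, 19.2% of the entries against 9.48% of all 32851 windows of this length. A match describes the letters of a window and nothing of how the gene is read.

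Total counts ran from 12436822 to 13194038 in WT and from 14584102 to 16888124 in Pontin cTG hearts, with 23.8% to 26.7% of counts from the mitochondrial genome. Pontin cTG replicate 2 stood apart from the other libraries, scoring 50.9 on the first principal component (48.6% of the variance) against -23.1 to 16.2 for the others, of which WT replicate 2 was the highest. The study's methods mention an outlier left out after principal component analysis, without naming the library or the experiment it came from. The study's figure legend for this comparison gives as many mice in each group as there are libraries here. That number does not establish whether Pontin cTG replicate 2 entered the study's own comparison, and this library was kept here. Ruvbl1, which encodes mouse Pontin, had 218 ± 2.72 normalised counts in WT hearts against 247 ± 5.79 in Pontin cTG hearts (n = 3 each, ± SD). The transgene is human, and its reads may not be counted at the mouse gene, so that this is no measure of it. Normalised counts are counts scaled to a common library size by the TMM method, and all values below are in this unit unless stated otherwise.

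The 34 genes did not separate the genotypes. Under edgeR's quasi-likelihood test, with p-values adjusted by Benjamini-Hochberg over all genes, 0 of the 33 tested members differed by genotype at a threshold of 0.05, where 0% of all 13888 genes did. Each of the 33 had an adjusted p of 0.999. At an unadjusted p under 0.05 there were 0 members in edgeR against 2.05% of all genes, 1 in DESeq2 (Meox1) against 0.846% of the 25636 genes fitted there, and 2 in limma-voom with sample quality weights (Pdgfra and Ddr2) against 5.72%. The fitted level was higher in Pontin cTG hearts for 19 and lower for 14 of the 33, where 50.2% of all genes were higher, and the median log2 fold change was 0.074 against 0.0013 over all genes. In 0 of the 34 did the groups stand clear of each other, against 8.33% of all genes tested (4.7% with Pontin cTG higher and 3.63% with it lower). In 34 of 34 the range within a group was wider than the difference between the group means. That count was not taken over all genes, so it cannot be read as particular to the members. An absolute log2 fold change of at least 0.5 was reached by 8 of the 33 members (Meox1, Fmod, Postn, Tnc, Thbs1, Thbs4, Comp and Mfap5) and by 5.42% of all genes. The direction rested on single hearts. Without Pontin cTG replicate 2, 7 of 33 members were higher (median -0.29), without Pontin cTG replicate 3, 25 of 34 (median 0.22), and without WT replicate 2, 31 of 34 (median 0.26), with 0 members called each time. At an unadjusted p under 0.05 there were 8 members without Pontin cTG replicate 3 (Pi16, Meox1, Fmod, Thbs1, Thbs4, Cilp, Mfap5 and Loxl2, all higher), against 2.87% of all genes in that fit. There were 3 without Pontin cTG replicate 2 (4.91% of all genes) and 2 without Pontin cTG replicate 1 (4.48%). Leaving out WT replicates 1, 2 and 3 in turn gave 1, 1 and 0 (0.847%, 1.31% and 1.68% of all genes). Without a filter on low counts there were 3 (Pdgfra, Pi16 and Meox1), against 1.86%.

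The intervals show how large a difference remained possible for each gene. For 18 of the 33 members the 95% interval of the log2 fold change lay within 1 of zero, so that a 2-fold difference in either direction was outside it, and for 15 it reached past 1. The narrowest intervals were those of the actin-severing protein gelsolin (Gsn), from -0.22 to 0.37, and of the elastin-binding protein fibulin-1 (Fbln1), from -0.30 to 0.31. The widest was that of fibromodulin (Fmod), from -0.45 to 4.61.

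**Figure D1:**
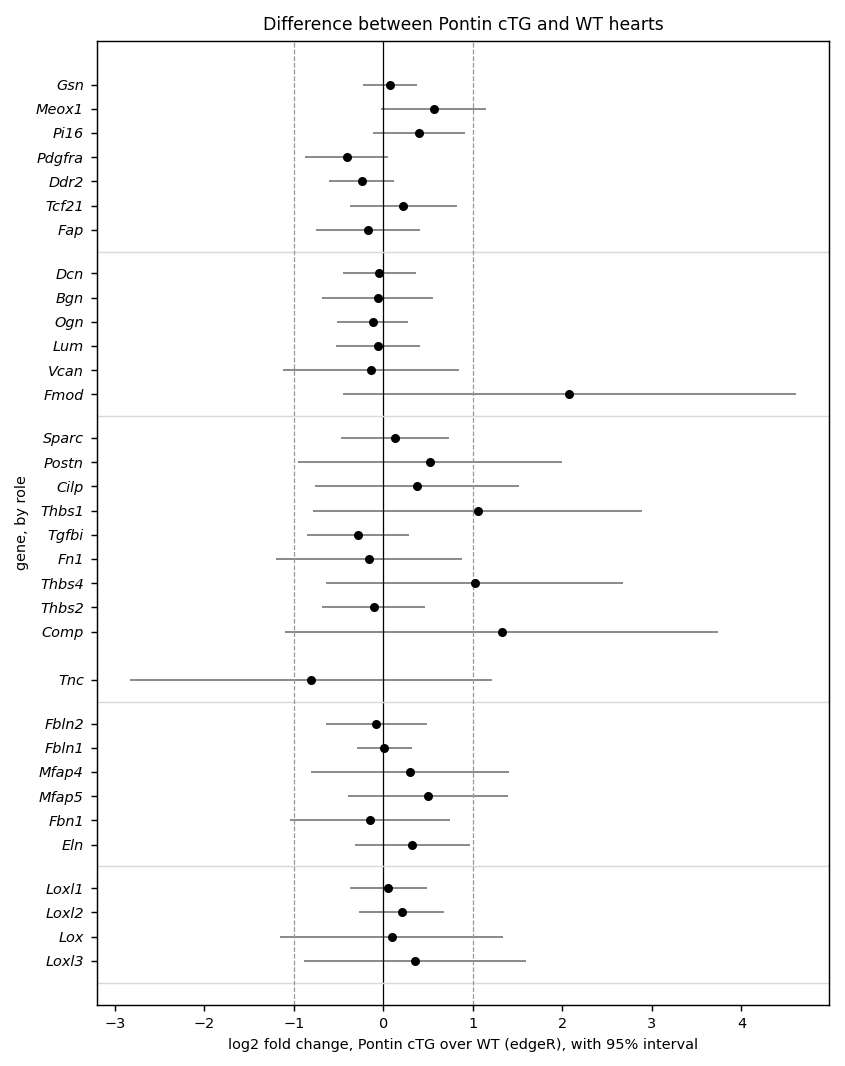
Log2 fold change of Pontin cTG over WT hearts (horizontal axis) with its 95% interval from edgeR for the 33 tested members, ordered by role and within a role by level per length. Dashed lines mark 2-fold differences. Every interval includes zero, and 15 of the 33 reach past a dashed line, 7 of them matricellular genes. Spp1 was not tested and has no point.

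In these genes, single hearts of each genotype stood apart from the others. The highest level of a member was in WT replicate 2 for 13 genes and in Pontin cTG replicate 2 for 17, together 30 of 34, where these libraries were highest for 16.8% and 30.2% of all genes tested. The lowest level was in Pontin cTG replicate 3 for 21 members (61.8%), where this library was lowest for 17.7% of all genes. Within WT, replicate 2 was above both others in 29 of 34 members, against 38.7% of all genes, and within Pontin cTG hearts replicate 3 was below both others in 27, against 30.0%. The members took 0.339%, 0.420% and 0.319% of the counts in the WT hearts, replicates 1 to 3, and 0.368%, 0.518% and 0.286% in the Pontin cTG hearts. The Pontin cTG group thus held both the highest and the lowest share of the 6 hearts.

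**Figure D2:**
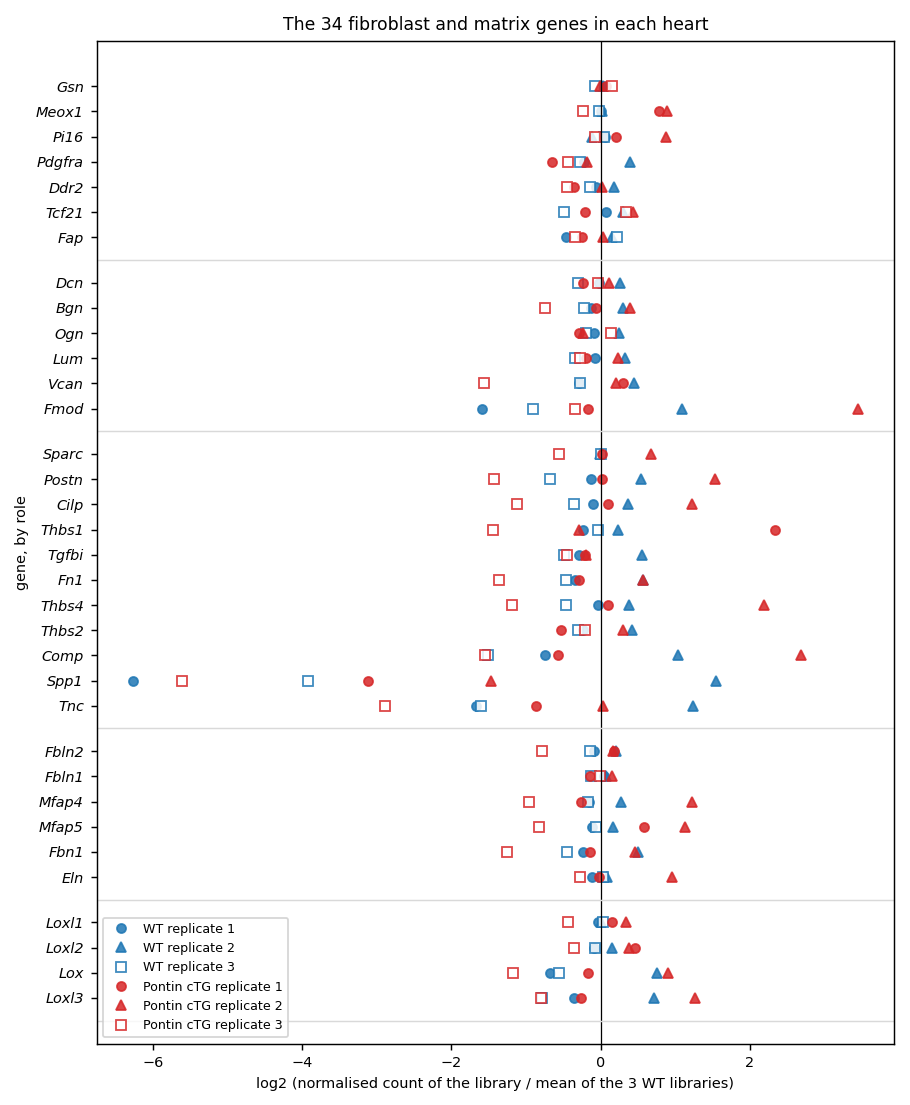
Level of each of the 34 members in each heart as the log2 ratio to the mean of the 3 WT libraries (horizontal axis), by role from fibroblast identity at the top to lysyl oxidases at the bottom. Pontin cTG replicate 2 (red triangles) lies farthest right in 17 genes and Pontin cTG replicate 3 (open red squares) farthest left in 21.

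The members varied more between hearts of a group than other genes of like level. The biological coefficient of variation, which is edgeR's estimate of the relative spread of a gene's true level within groups, had a median of 0.240 over the 33 members and 0.179 over all genes. Set against the 500 tested genes nearest in mean level, 30 of the 33 members were above the median spread and 21 (63.6%) above the 90th percentile. The ratio of the highest to the lowest of the 6 hearts had a median of 2.26 over the 34 members and 1.58 over all genes tested, and was above 4 in 12 members. By role, the median of this ratio was 1.90 for fibroblast identity genes, 1.90 for proteoglycans, 2.85 for elastic fibre genes, 2.97 for lysyl oxidases and 7.83 for matricellular genes.

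**Figure D3:**
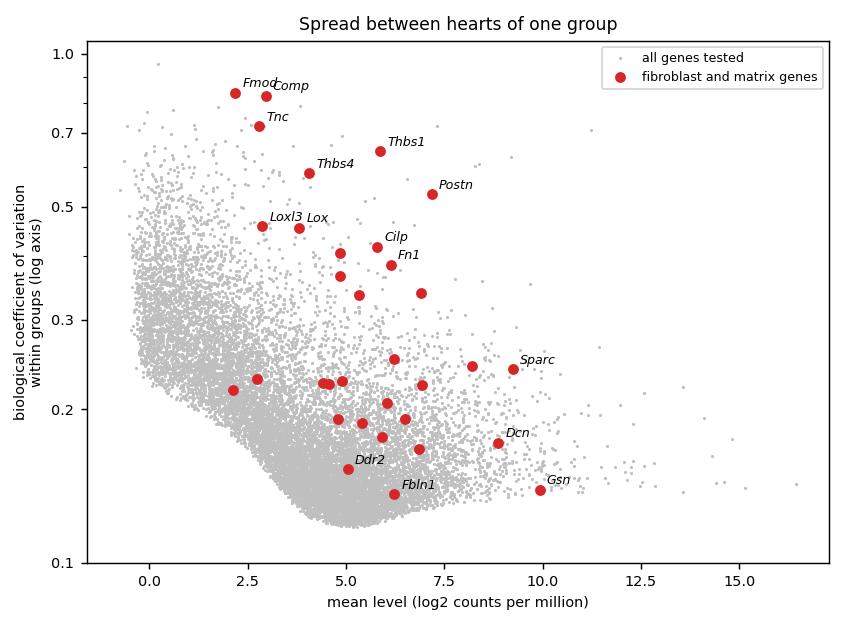
Biological coefficient of variation within groups (vertical, log axis) against mean level (log2 of counts scaled to library size) for all 13888 genes tested (grey) and the 33 tested members (red). Fmod, Comp and Tnc have the largest spread of the members, at 0.838, 0.828 and 0.720, and Fbln1, Gsn and Ddr2 the smallest, at 0.136, 0.139 and 0.153.

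The fibroblast identity genes were all detected in every heart, and their sum varied little between hearts. Their summed level was 16027, 16379 and 15004 in WT hearts against 16443, 16631 and 16949 in Pontin cTG hearts, in the order of replicates 1 to 3 that is kept for all values below. Each Pontin cTG sum lay above each WT sum, and the difference between the group means was smaller than the range within WT. Most of this sum is gelsolin (Gsn, ENSMUSG00000026879, chromosome 2 from 35146392 to 35197904 on GRCm39, the build of all gene coordinates below), an actin-severing protein that fibroblasts express strongly but not alone. The sum therefore follows Gsn and says little of the other identity genes. Gsn had 13658, 13656 and 12693 normalised counts in WT hearts against 13983, 13252 and 14875 in Pontin cTG hearts, a log2 fold change of 0.07 (standard error 0.13, 95% interval -0.22 to 0.37). The groups overlapped, and no heart lay apart from the others. Per kilobase of gene length Gsn was the highest of all 34 members, at 4335 normalised counts per kilobase on average.

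Meox1, a homeobox factor of activated cardiac fibroblasts, had the smallest unadjusted p of all members. The gene (ENSMUSG00000001493, chromosome 11 from 101768336 to 101785200) had 339, 343 and 334 normalised counts in WT hearts against 586, 626 and 288 in Pontin cTG hearts. The WT hearts lay close together, while Pontin cTG replicates 1 and 2 were above all of them and replicate 3 below. The log2 fold change was 0.56 (standard error 0.26, 95% interval -0.02 to 1.14, unadjusted p = 0.0576, adjusted p = 0.999 in edgeR). A two-sided exact permutation test over the 6 hearts gave p = 0.4, where 3 mice against 3 cannot give less than 0.1. In the 6 fits that left out a heart in turn the value stayed between 0.36 and 0.84.

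Pdgfra, the receptor for platelet-derived growth factor that marks resident fibroblasts, and Ddr2, a receptor tyrosine kinase for fibrillar collagen, were lower in the mean of Pontin cTG hearts. Pdgfra (ENSMUSG00000029231, chromosome 5 from 75312953 to 75358876) had 587, 901 and 563 normalised counts in WT hearts against 433, 600 and 507 in Pontin cTG hearts. Its log2 fold change was -0.41 (standard error 0.21, 95% interval -0.88 to 0.05, adjusted p = 0.999). WT replicate 2 was far above the rest, and Pontin cTG replicate 2 lay within the range of the WT hearts. Without WT replicate 2 the log2 fold change was -0.16. Ddr2 (ENSMUSG00000026674, chromosome 1 from 169799876 to 169938331) had 482, 570 and 456 normalised counts in WT hearts against 394, 509 and 369 in Pontin cTG hearts, a log2 fold change of -0.24 (standard error 0.16, 95% interval -0.61 to 0.12). Here too replicate 2 was the highest heart of each group, and the groups overlapped through it.

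The remaining identity genes gave fold changes of either sign. Pi16, a marker of adventitial and progenitor-like fibroblasts, had 794 ± 52.1 normalised counts in WT hearts against 1045 ± 372 in Pontin cTG hearts (n = 3 each, ± SD), with a log2 fold change of 0.40 (95% interval -0.12 to 0.91). The wide spread of the Pontin cTG group came from replicate 2 at 1463. Tcf21, a transcription factor of the epicardial lineage and of quiescent fibroblasts, had 84.6 ± 22.3 in WT hearts against 98.5 ± 22.2 in Pontin cTG hearts, with a log2 fold change of 0.22. Fap (chromosome 2 from 62331287 to 62404419), a membrane protease of activated fibroblasts, was the lowest of the identity genes per kilobase of gene length, at 10.6. Its normalised counts were 46.3, 70.7 and 73.8 in WT hearts against 53.7, 65.1 and 50.2 in Pontin cTG hearts, so that all Pontin cTG hearts fell within the WT range.

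None of the proteoglycans, most of which space collagen fibrils, differed between genotypes by the test. The fitted level was lower in Pontin cTG hearts for 5 of the 6 proteoglycans and higher for fibromodulin. Decorin (Dcn, ENSMUSG00000019929, chromosome 10 from 97315471 to 97354005) was the highest of them per kilobase, at 1126. It had 6602, 8017 and 5417 normalised counts in WT hearts against 5673, 7228 and 6505 in Pontin cTG hearts, a log2 fold change of -0.05 (standard error 0.18, 95% interval -0.45 to 0.36). The groups overlapped almost fully, with replicate 2 the highest of each. Lumican (Lum), which regulates fibril width, had 1300 ± 312 normalised counts in WT hearts against 1244 ± 253 in Pontin cTG hearts. Osteoglycin (Ogn) had 1699 ± 286 and 1565 ± 262, and biglycan (Bgn), which binds collagen and TGF-beta, had 4252 ± 852 and 4062 ± 1518. Their log2 fold changes were -0.06, -0.12 and -0.07.

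Versican (Vcan), the large hyaluronan-binding proteoglycan of provisional matrix, had 426 ± 133 normalised counts in WT hearts against 387 ± 211 in Pontin cTG hearts, with a log2 fold change of -0.14 (95% interval -1.12 to 0.84). Its lowest value was in Pontin cTG replicate 3, at 145. Fibromodulin (Fmod, ENSMUSG00000041559, chromosome 1 from 133964992 to 133976015), which also guides collagen crosslinking, was the lowest proteoglycan per kilobase, at 18.2, and the most variable of the tested members. It had 7.71, 49.4 and 12.3 normalised counts in WT hearts against 20.5, 253 and 18.2 in Pontin cTG hearts. Pontin cTG replicate 2 was thus 5.13 times the next heart, WT replicate 2, and the other 4 hearts were at 20.5 or below. The log2 fold change of 2.08 (standard error 1.10, 95% interval -0.45 to 4.61, unadjusted p = 0.0953, adjusted p = 0.999) became -0.25 without Pontin cTG replicate 2.

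**Figure D4:**
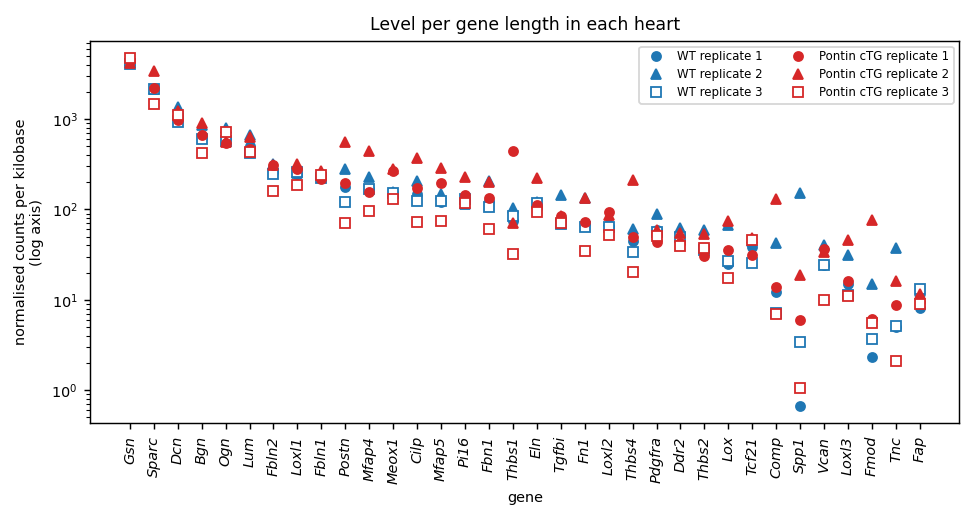
Normalised counts per kilobase of gene length (vertical, log axis) of the 34 members in each heart, ordered by their mean. Gsn, Sparc and Dcn lead at 4335, 2254 and 1126 on average, while low genes such as Fmod, Comp, Tnc and Spp1 spread over 10-fold or more between hearts.

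The matricellular and adhesive glycoproteins held the widest differences between hearts, and no difference between genotypes that passed the test. Their summed level was 12376, 15399 and 11726 normalised counts in the WT hearts against 15041, 23332 and 7728 in the Pontin cTG hearts. Pontin cTG replicates 2 and 3 therefore lay on opposite sides of all WT hearts. Among the 10 tested genes of this role 6 were higher and 4 lower in the transgenic hearts, the median log2 fold change being 0.25.

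Periostin (Postn, ENSMUSG00000027750, chromosome 3 from 54268530 to 54298458), a secreted protein that marks activated fibroblasts and promotes collagen assembly, had 1531, 2432 and 1046 normalised counts in WT hearts against 1693, 4856 and 620 in Pontin cTG hearts. The Pontin cTG group again held both extremes, replicate 2 with the highest level and replicate 3 with the lowest. The log2 fold change was 0.52 (standard error 0.64, 95% interval -0.95 to 1.99, unadjusted p = 0.442, adjusted p = 0.999), and it was -0.53 when Pontin cTG replicate 2 was left out and 0.97 when replicate 3 was.

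Tenascin C (Tnc, ENSMUSG00000028364, chromosome 4 from 63878022 to 63965252), an anti-adhesive protein of remodelled tissue and the lowest of this role per kilobase, stood out in a WT heart instead. It had 38.5, 288 and 40.2 normalised counts in WT hearts against 67.4, 125 and 16.5 in Pontin cTG hearts. WT replicate 2 was the highest and Pontin cTG replicate 2 the next. The log2 fold change was -0.81 (standard error 0.88, 95% interval -2.83 to 1.21, unadjusted p = 0.384), and 0.82 without WT replicate 2. Spp1 (ENSMUSG00000029304), a cytokine-like phosphoprotein made by activated macrophages and fibroblasts, was singled out after its values were seen because it followed the same hearts. Its counts before normalisation were 1, 222 and 5 in WT hearts against 10, 36 and 2 in Pontin cTG hearts, too low in most hearts for the filter. WT replicate 2 held most of the Spp1 counts of its group.

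Among the thrombospondins, which bind calcium, matrix proteins and growth factors, Thbs1 had its outlying heart elsewhere. Thbs1 (ENSMUSG00000040152, chromosome 2 from 117942357 to 117957614), an activator of latent TGF-beta, had 454, 626 and 520 normalised counts in WT hearts against 2694, 435 and 197 in Pontin cTG hearts. Pontin cTG replicate 1 was the single high heart, and the other Pontin cTG hearts were below all WT hearts. The log2 fold change was 1.05 (standard error 0.80, 95% interval -0.79 to 2.89, unadjusted p = 0.224, adjusted p = 0.999), and -0.74 without Pontin cTG replicate 1.

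Thbs4 (ENSMUSG00000021702, chromosome 13 from 92888098 to 92931326), which is induced in loaded muscle and tendon, had 149, 199 and 111 normalised counts in WT hearts against 163, 695 and 66.7 in Pontin cTG hearts. Comp (ENSMUSG00000031849, chromosome 8 from 70826208 to 70834716), also called thrombospondin 5 and known from cartilage and tendon, had 36.3, 125 and 21.2 in WT hearts against 41.0, 391 and 20.8 in Pontin cTG hearts. Both genes had their highest level in Pontin cTG replicate 2, their next in WT replicate 2 and their lowest in Pontin cTG replicate 3. The log2 fold change was 1.02 for Thbs4 (standard error 0.72, unadjusted p = 0.196) and 1.32 for Comp (standard error 1.05, unadjusted p = 0.245), each with an adjusted p of 0.999. Without Pontin cTG replicate 2 they were -0.42 and -0.98. Thbs2, a regulator of fibril assembly, varied far less, with 307 ± 90.6 in WT hearts against 285 ± 84.1 in Pontin cTG hearts.

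Sparc (ENSMUSG00000018593, chromosome 11 from 55285326 to 55314009), a collagen-binding protein needed for mature fibrils, was the highest of this role per kilobase, at 2254. It had 8146, 8106 and 8188 normalised counts in WT hearts against 8264, 12970 and 5556 in Pontin cTG hearts. The WT hearts were nearly equal, with Pontin cTG replicate 1 beside them and replicates 2 and 3 on either side. Its log2 fold change was 0.13 (standard error 0.27, 95% interval -0.47 to 0.74), and -0.24 without Pontin cTG replicate 2. Cilp, a matrix protein made by fibroblasts of the loaded heart, repeated this order with 677 ± 175 in WT hearts against 875 ± 650 in Pontin cTG hearts, from 311 in replicate 3 to 1587 in replicate 2. Fibronectin (Fn1), the adhesive protein on which other fibres assemble, had 1047 ± 443 and 936 ± 575, with a log2 fold change of -0.16 (95% interval -1.20 to 0.88). Tgfbi, a TGF-beta-induced adhesive protein, had 366 ± 150 and 301 ± 28.8, a log2 fold change of -0.28.

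**Figure D5:**
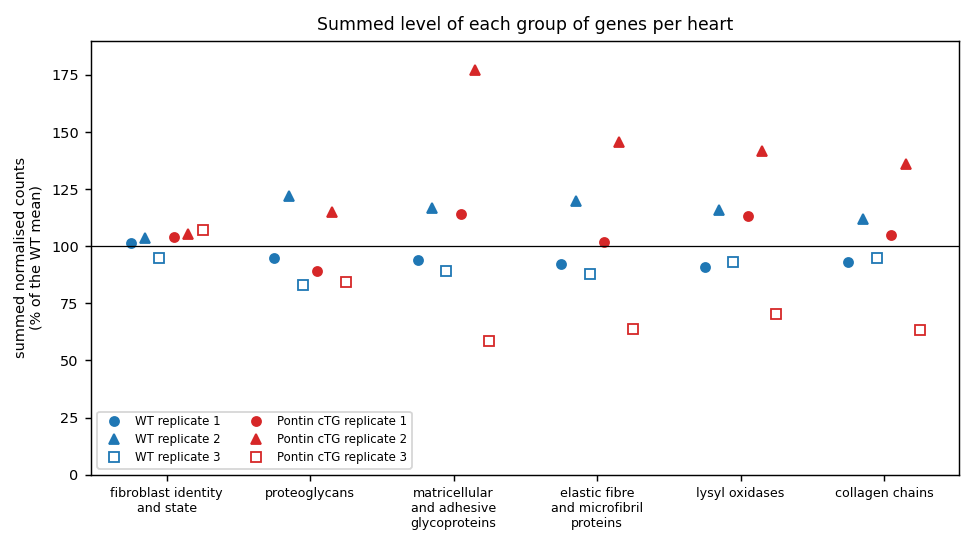
Summed normalised counts of each role in each heart as a percentage of the mean of the 3 WT hearts, which is drawn as a line at 100, with the 16 collagen chains at the right for comparison. The sum of the identity genes, most of which is Gsn, stays close to the line in all 6 hearts. Pontin cTG replicate 2 lies highest and Pontin cTG replicate 3 lowest for the matricellular, elastic fibre, lysyl oxidase and collagen genes.

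Elastic fibre and microfibril genes gave 4 members with higher and 2 with lower fitted levels in the transgenic hearts, the median log2 fold change being 0.15. Fbln1 (ENSMUSG00000006369, chromosome 15 from 85090150 to 85170736), which binds elastin and fibronectin, was the steadiest gene of the set by spread. It had 1086, 1104 and 962 normalised counts in WT hearts against 949, 1173 and 1048 in Pontin cTG hearts, and its log2 fold change was 0.01 (standard error 0.13, unadjusted p = 0.951). No heart stood apart for Fbln1, including those that were extreme for most other members. Fibulin-2 (Fbln2, chromosome 6 from 91189437 to 91249522), the highest of the role per kilobase at 268, had 1649, 2035 and 1586 in WT hearts against 1991, 1970 and 1018 in Pontin cTG hearts, of which replicate 3 alone was below the WT range.

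Elastin (Eln, chromosome 5 from 134731447 to 134776177), the core of the elastic fibre, was the lowest of the role per kilobase at 128. It had 849, 979 and 941 normalised counts in WT hearts against 911, 1786 and 762 in Pontin cTG hearts, a log2 fold change of 0.32 (standard error 0.28, 95% interval -0.32 to 0.97). Replicate 2 was far above the WT hearts and replicate 3 below them. The microfibril-associated protein Mfap5 (ENSMUSG00000030116, chromosome 6 from 122482804 to 122506249) had 434, 527 and 449 in WT hearts against 702, 1029 and 265 in Pontin cTG hearts. Pontin cTG replicates 1 and 2 were above all WT hearts and replicate 3 below all, the order that Meox1 showed. Its log2 fold change was 0.50 (standard error 0.39, 95% interval -0.39 to 1.40, unadjusted p = 0.236, adjusted p = 0.999), and 0.04 without Pontin cTG replicate 2.

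Mfap4, a fibrinogen-like protein of microfibrils, had 363 ± 66.2 normalised counts in WT hearts against 445 ± 353 in Pontin cTG hearts, from 186 in replicate 3 to 847 in replicate 2. Fibrillin-1 (Fbn1), the backbone of the microfibril, had 1767 ± 640 and 1592 ± 842, a log2 fold change of -0.15. Mfap4 overlaps Mapk7 on the other strand, whose counts were 23.8% of those of Mfap4, and whether counting used strand is not given in the sources used here.

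All 4 lysyl oxidases had a fitted level above that of WT hearts, and none came near the threshold. Loxl1 (chromosome 9 from 58195021 to 58220469), which acts on elastin, was the highest of them per kilobase at 256, with 808, 832 and 846 normalised counts in WT hearts against 925, 1045 and 614 in Pontin cTG hearts. Its log2 fold change was 0.06 (standard error 0.19, 95% interval -0.37 to 0.48). The WT hearts lay close together, and the Pontin cTG hearts lay on both sides of them. Loxl3 (chromosome 6 from 83011154 to 83029543) was the lowest at 21.9, with 69.4, 146 and 51.4 in WT hearts against 74.2, 213 and 51.1 in Pontin cTG hearts. Replicate 2 was the highest heart of each group and replicate 3 the lowest. Loxl3 overlaps Htra2 on the other strand, whose counts were 199% of its own, so that its values are uncertain.

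Lox, the enzyme that crosslinks collagen and elastin, had 190 ± 115 normalised counts in WT hearts against 202 ± 138 in Pontin cTG hearts, with a log2 fold change of 0.09 (95% interval -1.15 to 1.34). Its highest hearts were Pontin cTG replicate 2 at 354 and WT replicate 2 at 322, and its lowest was Pontin cTG replicate 3 at 84.0. Loxl2, which acts on fibrillar and basement membrane collagen, had 363 ± 36.2 and 418 ± 118, a log2 fold change of 0.20.

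The difference between the hearts of the Pontin cTG group was uneven across roles. The level in replicate 2 divided by that in replicate 3 had a median of 1.30 over the identity genes, 1.81 over proteoglycans, 2.80 over elastic fibre genes, 2.94 over lysyl oxidases and 5.10 over matricellular genes. As the median log2 deviation from the WT mean, the matricellular genes stood at 0.68 in replicate 2 and -1.11 in replicate 3, and the identity genes at 0.06 and -0.24. Deviations in these hearts ran with gene length over all genes, with a Spearman rho of -0.20 in replicate 2 and -0.16 in replicate 3, and between 0.084 and 0.18 in the other 4 hearts. With each heart's trend on length removed, the median deviation of the members was 0.45 in replicate 2 and -0.44 in replicate 3, against 0.47 and -0.44 before. In WT replicate 2 it was 0.29 against 0.32 before. After removal 20 of the 33 tested members were lowest in Pontin cTG replicate 3, 20 were highest in Pontin cTG replicate 2 and 8 in WT replicate 2. Before removal these counts, over all 34 members, were 21, 17 and 13. The part of gene length in the pattern was not tested.

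The other matrix and fibroblast genes gave no call either. Of 16 collagen chains 11 were higher and 5 lower in the transgenic hearts, the median log2 fold change being 0.037, and 0 had an unadjusted p under 0.05. Their summed level was 31363, 37715 and 31861 in WT hearts against 35360, 45828 and 21251 in Pontin cTG hearts, which is the order of the matricellular genes in the Pontin cTG group. The smallest p of each direction belonged to Col16a1, with a log2 fold change of 0.42 (unadjusted p = 0.261), and Col14a1, with -0.37 (unadjusted p = 0.436).

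Of 36 other non-collagen matrix genes tested, 22 were higher and 14 lower with a median of 0.046, and a single gene had an unadjusted p under 0.05. This was Ltbp1, which binds latent TGF-beta to the matrix, with 719, 791 and 712 normalised counts in WT hearts against 559, 610 and 597 in Pontin cTG hearts. All Pontin cTG hearts were below all WT hearts, with a log2 fold change of -0.33 (unadjusted p = 0.021, adjusted p = 0.999). Of all genes tested, 1.03% were lower at an unadjusted p under 0.05, and 3.63% were lower with groups that did not overlap. Fbn2, the fibrillin of developing tissue, had the smallest p among the higher genes, with a log2 fold change of 0.52 (unadjusted p = 0.248).

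Of 15 other fibroblast genes tested, 9 were higher and 6 lower with a median of 0.016, and 0 had an unadjusted p under 0.05. Has2, a hyaluronan synthase, had 13.2, 15.7 and 19.0 normalised counts in WT hearts against 12.7, 9.42 and 9.53 in Pontin cTG hearts, a log2 fold change of -0.60 (unadjusted p = 0.149). Ly6a, the surface antigen Sca-1, had the smallest p among the higher genes, with a log2 fold change of 0.28 (unadjusted p = 0.184).

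Markers of other cells followed the order of the matrix genes in part. The 10 macrophage markers summed to 5579 to 9289 normalised counts in WT hearts, with replicate 2 the highest, and to 4693 to 7021 in Pontin cTG hearts. The 10 endothelial markers summed to 20574 to 21999 in WT hearts and to 18827 to 27991 in the transgenic hearts, with the highest in replicate 2. WT replicate 2, the highest WT heart for most members, thus also had the highest macrophage sum, and Pontin cTG replicate 2 the highest endothelial sum. Single markers differed, with C1qa, C1qc and Mertk highest in Pontin cTG replicate 2 and Tek and Vwf in WT replicate 2. Sums of 10 smooth muscle and pericyte markers ran from 20921 to 22672 in WT hearts and from 18401 to 19970 in the others, and those of 10 cardiomyocyte markers from 760256 to 878433 and from 744157 to 834419. Pontin cTG replicate 3, lowest in most members, also had the lowest sums of the 6 hearts for macrophage, endothelial and cardiomyocyte markers. Single cardiomyocyte markers differed, with Myh6, Actc1 and Ttn lowest in this heart and Tnni3, Pln and Mb highest in it. The cardiomyocyte sum was highest in WT replicate 2. The smooth muscle and pericyte sum was lowest in Pontin cTG replicate 2 and lower in all Pontin cTG than in all WT hearts. Most of that sum was Rgs5 and Abcc9. Of the 9 tested markers in it, 8 had a lower fitted level and Acta2 did not (log2 fold change 0.02). Only Abcc9 had groups that did not overlap, where 3.63% of all genes were lower in this way. It had 5107, 5499 and 4892 normalised counts in WT hearts against 4772, 2789 and 4116 in Pontin cTG hearts.

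Comp, Fmod, Thbs4 and Cilp are also genes of cartilage and tendon, so 6 markers of these tissues were summed. They gave 79.3 to 106 normalised counts in WT hearts and 73.2 to 119 in the others, with Matn3 at 0 in all libraries and most of the sum from Scx, a tendon transcription factor. Tnmd, a tendon membrane protein, had 14 counts before normalisation in Pontin cTG replicate 2, 3 in WT replicate 2 and 0 in the other hearts, which are the hearts that were highest for Comp, Fmod and Thbs4. Acan and Chad, of cartilage, were also highest in Pontin cTG replicate 2, at 8.56 and 6.85 normalised counts, and Col2a1 had 1 count there and 0 elsewhere. Counts of Tnmd, Acan, Chad and Col2a1 were too low for the filter, and Chad had 0 in WT replicate 2. Scx, the only one of the 6 markers that was tested, did not follow these hearts. It had 73.8, 89.7 and 96.1 normalised counts in WT hearts against 64.4, 90.8 and 95.3 in Pontin cTG hearts. Markers of the remaining cells were low in all hearts, except those of red cells. The 5 Schwann cell markers summed to 122 to 164 in WT hearts and 102 to 199 in the others, and the 5 mesothelial markers, with Krt19 at 0 throughout, to 53.8 to 73.8 and 57.2 to 102. The 9 lymphocyte markers gave 39.6 to 60.6 and 35.1 to 67.6, the 5 neutrophil markers, with Ly6g at 0 throughout, 13.2 to 103 and 35.1 to 143, and the 5 adipocyte markers 2.20 to 10.1 and 0.856 to 14.6. The 5 erythroid markers, transcripts of red cells, summed to 13186 to 22338 and 11695 to 21216. In each of these lists the ranges of the groups overlapped, and the part of such cells in the values of the members was not tested.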

How the data were processed

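RNA was extracted from whole hearts with Trizol and sequenced, one library per heart. The authors deposited raw counts per gene, whole numbers with no normalisation, in a single table with all 6 libraries (columns of sample values without a match: 0, rows lacking a gene name: 0). The submitters' processing notes name fastp, HISAT2, featureCounts, DESeq2 and GRCm39, whereas the study's methods name Trimmomatic, STAR, mm10 and Gencode M25. Coordinates are those of the table, taken as GRCm39, since for 0 of the 34 members do they equal the GENCODE M21 positions on GRCm38. The gene lengths of the table gave the levels per kilobase.

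The genotypes were compared in edgeR 4.0.16 and R 4.3.3 on counts kept by filterByExpr at a minimum count of 10, with TMM factors (glmQLFit with robust estimation, glmQLFTest, genotype as the only term), with Benjamini-Hochberg adjustment over all genes tested. Standard errors are the fold change divided by the square root of F. The labels call the libraries biological replicates and name no shared litter, so no pairing was used in the main test. Deviations of same-numbered libraries correlated at 0.077, 0.43 and 0.19, which does not settle whether they are paired. Alternatives were DESeq2 1.42.0, its size factors, library size alone, other filters on low counts, no mitochondrial genes, a replicate block, limma-voom (limma 3.58.1) with sample quality weights, removal of gene length trends, and each library left out. Leaving out both replicates 2 was added after the data were seen. The tests were run first on simulated data. The spread of each member was ranked among its 500 nearest genes by mean level.

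The members and lists were chosen with earlier results of these data known. All members were named, with values per library for those whose groups did not overlap, with an unadjusted p under 0.05, with an absolute log2 fold change of at least 0.5, highest or lowest per length in a role, or among the 3 of largest or smallest spread. Ddr2 and Fbln1 entered by the last. Pdgfra was added because its fold change passed an unadjusted p under 0.05 in limma-voom, after its values were seen.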

Additional observations from a re-analysis of the deposited data

How the results depend on the processing

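In every setting run, 0 members passed an adjusted p of 0.05. Spp1, which had 10 counts or fewer in 4 of 6 hearts, did not pass the filter of the main fit. Over all genes the number called was 0 except in DESeq2 (1), without a filter on low counts (3), in limma-voom with sample quality weights (3), without both replicates 2 (6), and between 0 and 3 with each library left out. The median log2 fold change of the members, 0.074, was -0.070 in limma-voom, which gave Pontin cTG replicate 2 a weight of 0.176, -0.039 without both replicates 2, and from -0.29 to 0.26 with each library left out, and the number of higher members, 19, was 12 in limma-voom and from 7 to 31. With the replicate number as a block the median was 0.030, 0 members and 0 genes were called, 4 members (Pdgfra, Meox1, Fmod, Comp) and 499 genes had an unadjusted p under 0.05, and no member changed direction. The cause of these differences was not tested.

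The direction changed in limma-voom for Postn (-0.14), Thbs4 (-0.085), Sparc (-0.12), Cilp (-0.10), Fbln1 (-0.081), Mfap4 (-0.28) and Loxl1 (-0.0089), without a filter for Fbln1 (-0.0028) and with length trends removed for Vcan (0.0065). Without both replicates 2 it changed for Dcn (0.021), Ogn (0.082), Postn (-0.16), Tnc (0.070), Thbs4 (-0.19), Sparc (-0.24), Cilp (-0.16), Tgfbi (0.058), Eln (-0.096), Fbln1 (-0.034), Mfap4 (-0.41) and Loxl1 (-0.10). With each library left out in turn, log2 fold changes ran from -0.17 to 0.11 for Dcn, -0.24 to 0.14 for Lum, -0.36 to 0.18 for Bgn, -0.25 to 3.27 for Fmod, -0.26 to 0.025 for Ogn, -0.41 to 0.25 for Vcan, -0.73 to 0.24 for Fn1, -0.53 to 0.97 for Postn, -1.56 to 0.82 for Tnc, -0.74 to 1.55 for Thbs1 (1.57 without both replicates 2), -0.36 to 0.16 for Thbs2, -0.42 to 1.49 for Thbs4, -0.24 to 0.38 for Sparc, -0.98 to 2.39 for Comp, -0.39 to 0.77 for Cilp, -0.47 to 0.10 for Tgfbi, -0.59 to 0.19 for Fbn1, -0.14 to 0.55 for Eln, -0.073 to 0.089 for Fbln1, -0.22 to 0.17 for Fbln2, -0.58 to 0.66 for Mfap4, -0.59 to 0.71 for Lox, -0.11 to 0.25 for Loxl1 and -0.51 to 0.90 for Loxl3. Fits that leave a group with 2 hearts pool the spread over both groups.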

Other observations

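Genes that peaked in the same hearts as the matrix genes were looked up after the values had been seen, and are given as values only. In Pontin cTG replicate 2, where Postn, Fmod, Comp, Thbs4 and Cilp were highest, the atrial natriuretic peptide gene Nppa had 7716 normalised counts against 360 to 1842 in the other hearts, and the slow myosin heavy chain gene Myh7 had 20807 against 3039 to 11962. The brain natriuretic peptide gene Nppb had 6422 there against 2546 to 4077 elsewhere. Of the atrial transcripts, Myl7 was between 0 and 6.73 and Sln between 0 and 1.12 in all 6 hearts, while the atrial light chain Myl4 was highest in Pontin cTG replicate 2, at 43.7 against 8.81 to 28.3 elsewhere. Of the other non-collagen matrix genes, Ltbp2, which binds microfibrils, and Cthrc1, a secreted protein of activated fibroblasts, were also highest in this heart, at 531 and 72.8 against 30.3 to 164 and 1.12 to 31.4.

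In Pontin cTG replicate 1 the high Thbs1 stood beside high levels of heat shock genes, with Hspa1b at 243 against 25.7 to 50.7 in the other hearts and Hspa1a at 155 against 17.1 to 48.2. Ccn2, a matricellular protein, was at 1938 against 776 to 1455. Hspa1b and Thbs1 were the only tested genes whose level in this heart was at least 4 times that of every other heart, with 1 added to both levels.

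In WT replicate 2, where Tnc and Spp1 were highest, the haem oxygenase gene Hmox1 had 813 normalised counts against 89.2 to 140 in the other hearts. By the same measure Hmox1 was the only such gene of this heart, and Fmod, Sumo2 and Nppa were those of Pontin cTG replicate 2. The other 3 hearts had none.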
